A study of Mus musculus with 6 samples.

Results

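The genes described here are the enzymes of the tricarboxylic acid (TCA) cycle and of branched-chain amino acid (BCAA) catabolism: 34 of the 37384 gene symbols counted, chosen by a fixed list of symbols and not by their values. Of these, 14 belong to the TCA cycle and 20 to BCAA catabolism, and the groups are reported apart. RNA was sequenced from adipocytes of inguinal subcutaneous white adipose tissue (scWAT) of male mice at postnatal day 7, in 3 L1L2-FF and 3 L1L2-AKO libraries, and each library pooled the cells of 4 mice. Both genotypes carry floxed *Lats1* and *Lats2*, the kinases of the Hippo pathway, and only L1L2-AKO mice also carry Cre recombinase under the *Adipoq* promoter, which is active in adipocytes. The cells were taken by collagenase digestion and flotation, and the comparison asks how these metabolic genes differ when the kinases are deleted in adipocytes. The study's methods describe the libraries of a genotype as biological replicates.

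The TCA cycle oxidizes acetyl-CoA in the mitochondrial matrix and passes the electrons to the respiratory chain. The breakdown of leucine, isoleucine and valine starts with a shared transamination and a shared oxidative decarboxylation, then divides into branches that end in acetyl-CoA, acetoacetate or propionyl-CoA, and propionyl-CoA enters the TCA cycle as succinyl-CoA. White adipocytes are known to raise BCAA catabolism as they differentiate and to use its carbon for lipid synthesis.

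Levels are read counts relative to the library total (CPM), scaled by the trimmed mean of M-values (TMM), and the values of single libraries follow the order of replicates 1, 2 and 3. Differences are log2 fold changes of L1L2-AKO over L1L2-FF from edgeR's quasi-likelihood test, with the Benjamini-Hochberg adjusted p over the 15674 genes tested and a threshold of 0.05. All 34 genes passed the filter on low counts. Among libraries of 1 genotype, L1L2-FF replicates 2 and 3 were the least alike, with a chi-square per degree of freedom over their counts of 159, against 30.3 to 84.6 for the other pairs. As a check of the labels, *Lats1* measured 76.1, 94.3 and 78.4 CPM in the L1L2-FF libraries and 38.9, 41.2 and 40.5 CPM in the L1L2-AKO libraries, a fall with log2 fold change -1.04 ± 0.12 (SE, n = 3 libraries per genotype), adjusted p = 0.00131. *Lats2* measured 74.9, 85.7 and 68.5 CPM in the L1L2-FF libraries and 96.2, 126 and 135 CPM in the L1L2-AKO libraries and rose, against the label of a deletion, with log2 fold change 0.64 ± 0.16 (SE, n = 3 libraries per genotype), adjusted p = 0.0278. These counts cover the whole gene and do not separate the deleted exons, so L1L2-AKO below names the libraries that carry this label.

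To show the sequence in front of genes that fell and of 1 that did not, the RefSeq promoter windows (250 bases before and 50 after a start site, build GRCm38.p6) were searched. Windows were matched for 31 of the 34 genes, 41 windows in all, leaving out *Idh3a*, *Dbt* and *Slc25a44*. The bases of a window that lie before both its start site and the annotated gene are printed 5′ to 3′ for 4 genes. They are *Idh3b*, the TCA member with the largest fall past the threshold (chr2:130284548-130284701), and *Idh2*, the TCA member with a higher fitted level (chr7:80115393-80115600). The others are *Pccb*, which holds 2 of the motifs (chr9:101034899-101035134), and *Aldh6a1*, the BCAA member with the largest fall (chr12:84451025-84451274). All 4 lie on the minus strand, and capitals mark motif matches. *Aldh6a1* has another window (chr12:84448268-84448567) with no motif match, and the window that holds a match is the one printed.
Idh3b: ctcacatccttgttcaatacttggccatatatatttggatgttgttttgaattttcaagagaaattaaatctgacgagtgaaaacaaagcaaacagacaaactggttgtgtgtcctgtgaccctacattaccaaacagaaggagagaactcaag
Idh2: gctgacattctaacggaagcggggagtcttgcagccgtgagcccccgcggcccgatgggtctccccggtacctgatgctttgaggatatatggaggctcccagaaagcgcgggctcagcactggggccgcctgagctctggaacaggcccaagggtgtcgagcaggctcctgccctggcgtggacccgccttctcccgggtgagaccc
Pccb: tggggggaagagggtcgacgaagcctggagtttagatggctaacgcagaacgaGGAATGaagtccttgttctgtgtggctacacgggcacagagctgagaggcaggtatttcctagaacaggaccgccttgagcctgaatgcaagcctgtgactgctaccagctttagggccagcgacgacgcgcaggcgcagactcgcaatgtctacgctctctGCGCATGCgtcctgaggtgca
Aldh6a1: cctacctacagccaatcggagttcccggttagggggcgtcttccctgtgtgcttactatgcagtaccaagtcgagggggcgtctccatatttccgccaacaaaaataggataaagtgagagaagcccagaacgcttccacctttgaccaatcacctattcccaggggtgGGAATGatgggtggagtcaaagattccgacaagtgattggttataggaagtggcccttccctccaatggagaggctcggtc

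The motifs, searched on both strands, were those of TEAD factors, which bind DNA for the Hippo effectors YAP and TAZ, and of regulators of mitochondrial genes. The TEAD motif GGAATG was in 3 of the 41 windows (7.32%), those of *Aldh6a1*, *Mdh1* and *Pccb*, and in 14.7% of all 32851 promoter windows. In *Aldh6a1* it lies 81 bases and in *Pccb* 197 bases before the start site. The motif of nuclear respiratory factor 1, GCATGCGC, was in 3 windows (7.32%), 1 of *Pccb* and 2 overlapping windows of *Ogdh*, against 2.71% of all windows, and in *Pccb* it lies 35 bases before the start site. The ETS motif CCGGAAGT was in 1 window (2.44%), that of *Dlst*, against 3.89%. The motif of estrogen-related receptors, TCAAGGTCA, was in 0 of the 41 windows and in 0.423% of all windows. These matches describe letters within the windows and no bound site.

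Compared per kilobase of exon, TCA enzymes took the first 6 places among the 34 genes in L1L2-FF adipocytes. *Cs* (citrate synthase) came first with 263 ± 74.9 CPM per kb (SD, n = 3), followed by the malate dehydrogenases *Mdh1* with 234 ± 78.1 CPM per kb and *Mdh2* with 149 ± 49.9 CPM per kb. *Cs* and *Mdh1* did not differ beyond their spread. The highest BCAA gene was *Aldh6a1*, the methylmalonate semialdehyde dehydrogenase of valine breakdown, in place 7 with 107 ± 12.4 CPM per kb in L1L2-FF and 37.5 ± 1.22 CPM per kb in L1L2-AKO libraries. The lowest was *Bcat1*, the cytosolic BCAA transaminase, with 0.515 ± 0.0871 CPM per kb.

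**Figure D1:**
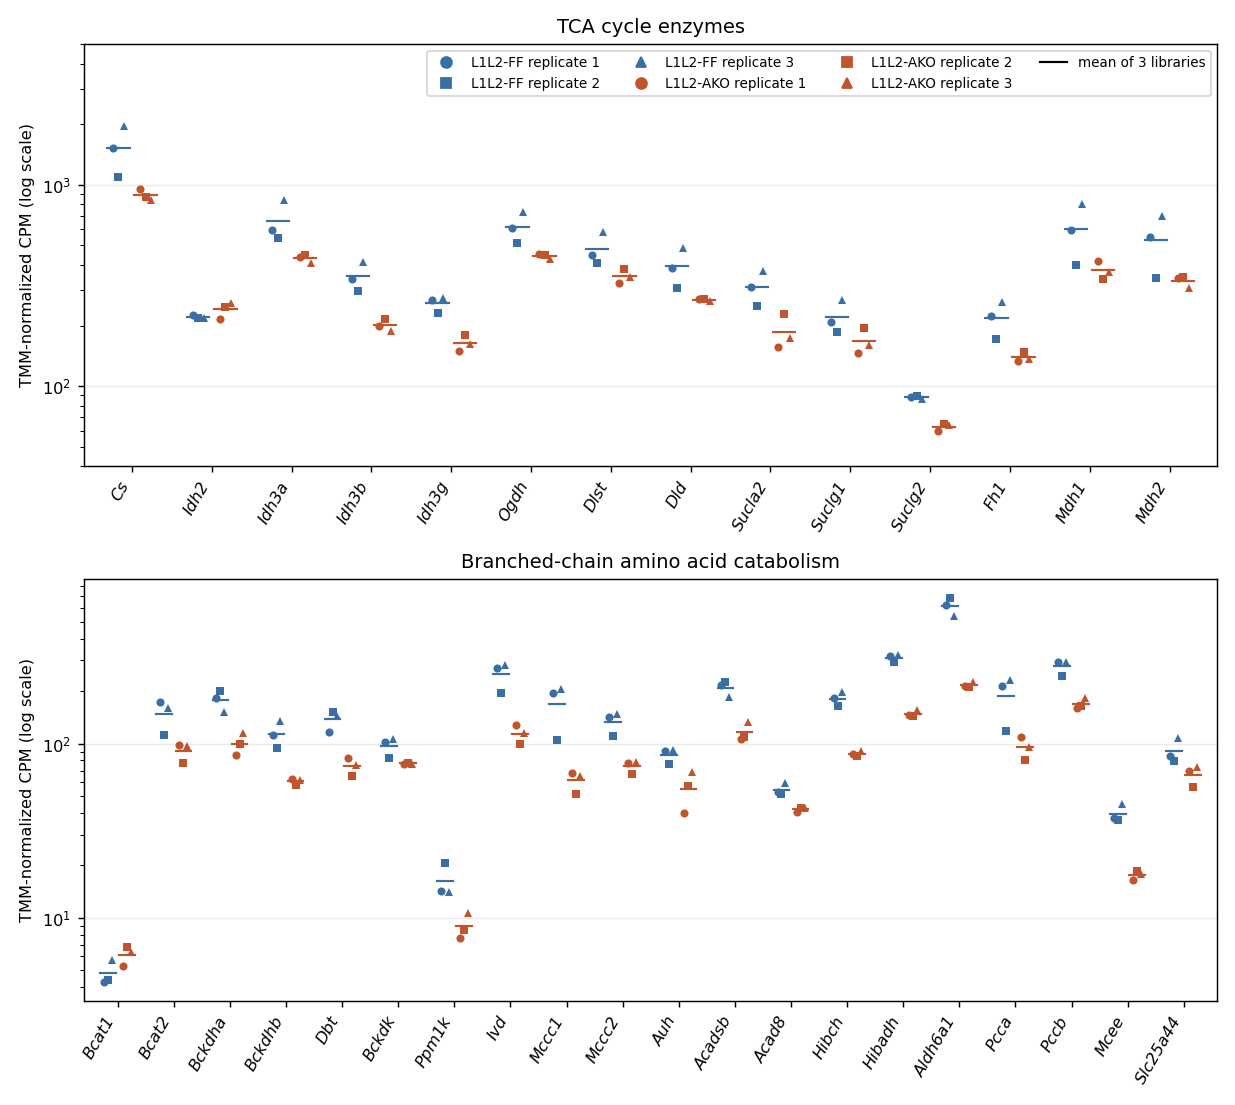
TMM-normalized CPM (log scale) of the 14 TCA and 20 BCAA genes in each library, with blue for L1L2-FF, orange for L1L2-AKO, 1 symbol per replicate and a bar at the mean of 3 libraries. The L1L2-AKO libraries lie below all L1L2-FF libraries for 10 TCA genes and 19 BCAA genes, and *Bcat1* and *Idh2* are the genes with a higher L1L2-AKO mean.

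The RNA of part of the TCA cycle genes was lower in L1L2-AKO adipocytes. RNA counts do not measure the amount or activity of the enzymes, here and for the BCAA genes. *Idh3b*, *Idh3g*, *Sucla2*, *Suclg2* and *Fh1* fell to between 57.2% and 71.3% of their L1L2-FF level. Of the 14 genes, these 5 passed the test as lower and 0 as higher, beside 7.18% of all tested genes called lower and 9.28% called higher, and 9 did not pass. In 10 of the 14 every L1L2-AKO library lay below every L1L2-FF library, beside 18.4% of all tested genes, and in 0 every one lay above, beside 18.0%. At an adjusted p under 0.05, DESeq2 called 11 as lower and limma-voom 5, beside 1602 and 1023 over all tested genes. Both called 0 as higher. At an unadjusted p under 0.05, edgeR gave 12 genes as lower and 0 as higher. The share of all tested genes at the unadjusted cut was not counted. The median log2 fold change was -0.63, beside -0.02 over all tested genes. Summed over the 14 genes, the level was 6378, 5051 and 7997 CPM in L1L2-FF and 4266, 4389 and 4117 CPM in L1L2-AKO libraries, or 65.8% of the L1L2-FF mean. In bulk RNA, fewer cells of a type and less RNA per cell cannot be told apart, here and in the results that follow.

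At the entry of the cycle, *Cs*, which joins acetyl-CoA and oxaloacetate, measured 1518, 1089.5 and 1956 CPM in the L1L2-FF libraries and 954, 873 and 842 CPM in the L1L2-AKO libraries. The groups did not overlap, but the L1L2-FF libraries spread widely and *Cs* just missed the threshold, with log2 fold change -0.77 ± 0.22 (SE, n = 3 libraries per genotype), adjusted p = 0.0504. *Cs* passed as lower in 5 of 14 alternative fits with another normalization, test, filter or library set. The next oxidation is carried out by the NAD-dependent isocitrate dehydrogenase, whose catalytic subunit is *Idh3a* and whose other subunits are *Idh3b* and *Idh3g*. *Idh3b* (chr2:130279309-130284547, minus strand, mm10) measured 342, 297 and 413 CPM in the L1L2-FF libraries and 199, 215 and 188 CPM in the L1L2-AKO libraries. All L1L2-AKO libraries were lower, with log2 fold change -0.81 ± 0.15 (SE, n = 3 libraries per genotype), adjusted p = 0.00994. *Idh3g* (chrX:73778963-73786897, minus strand) measured 268, 232 and 273 CPM in the L1L2-FF libraries and 149, 179 and 162 CPM in the L1L2-AKO libraries. It also fell without overlap, with log2 fold change -0.66 ± 0.13 (SE, n = 3 libraries per genotype), adjusted p = 0.012. *Idh3a* had a fitted change of -0.61 ± 0.19 and did not pass (adjusted p = 0.0586). *Idh2*, the NADP-dependent mitochondrial isocitrate dehydrogenase that supplies NADPH, was the one TCA gene with a higher fitted level, from 221 ± 4.57 to 241 ± 21.8 CPM (SD, n = 3), and its libraries overlapped (log2 fold change 0.12 ± 0.12, adjusted p = 0.541).

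The 2-oxoglutarate dehydrogenase complex converts 2-oxoglutarate to succinyl-CoA, and none of its 3 subunit genes passed, although edgeR gave all 3 as lower at an unadjusted p under 0.05. *Ogdh*, *Dlst* and *Dld*, its E1, E2 and E3 components, had log2 fold changes of -0.48 ± 0.16, -0.44 ± 0.17 and -0.55 ± 0.18 (SE), and in all 3 every L1L2-AKO library lay below every L1L2-FF library. *Dld* also serves the pyruvate and branched-chain dehydrogenase complexes.

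Succinyl-CoA ligase makes ATP or GTP, depending on which beta subunit pairs with the alpha subunit *Suclg1*. The ATP-forming *Sucla2* (chr14:73525319-73596142, plus strand) measured 312, 251 and 372 CPM in the L1L2-FF libraries and 156, 229.6 and 174 CPM in the L1L2-AKO libraries. L1L2-AKO replicate 2 came closest to the L1L2-FF libraries but stayed below them, with log2 fold change -0.74 ± 0.20 (SE, n = 3 libraries per genotype), adjusted p = 0.0381. The GTP-forming *Suclg2* (chr6:95473009-95718800, minus strand) measured 88.5, 89.2 and 86.7 CPM in the L1L2-FF libraries and 59.7, 64.8 and 64.1 CPM in the L1L2-AKO libraries. Its replicates lay close together in both genotypes, and it fell with log2 fold change -0.49 ± 0.10 (SE, n = 3 libraries per genotype), adjusted p = 0.0128. The predicted gene *Gm15163* shares 16.0% of the 50-base stretches of *Suclg2* and was counted at a mean of 8.71 and 7.45 CPM, and reads within that share could be counted for either. *Suclg1* overlapped between genotypes (-0.40 ± 0.17, adjusted p = 0.164). The log2 ratio of *Suclg2* to *Sucla2* counts within a library was -1.82, -1.49 and -2.10 in L1L2-FF and -1.39, -1.82 and -1.44 in L1L2-AKO libraries. The genotypes overlapped, and the mean difference of 0.25 gave p = 0.3 in an exact two-sided permutation test (adjusted p = 0.3 over 3 ratios). This difference was 0.11 without L1L2-FF replicate 3 and 0.41 without L1L2-FF replicate 2.

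In the last steps, fumarate hydratase *Fh1* (chr1:175600374-175625635, minus strand) measured 223, 171 and 262 CPM in the L1L2-FF libraries and 133, 148 and 137 CPM in the L1L2-AKO libraries. All L1L2-AKO libraries were lower, with log2 fold change -0.65 ± 0.16 (SE, n = 3 libraries per genotype), adjusted p = 0.0323. The cytosolic *Mdh1* and the mitochondrial *Mdh2*, which interconvert malate and oxaloacetate, had fitted changes of -0.68 ± 0.24 and -0.67 ± 0.24. Neither passed (adjusted p = 0.0971 and 0.0957), and in both L1L2-FF replicate 2 lay within the L1L2-AKO range.

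The L1L2-FF libraries were themselves unlike. L1L2-FF replicate 3 was the highest L1L2-FF library for 12 of the 14 TCA genes, and L1L2-FF replicate 2 the lowest for 12. The count of lower TCA genes was 11 without L1L2-FF replicate 2, as *Cs*, *Idh3a*, *Ogdh*, *Dld*, *Mdh1* and *Mdh2* then passed (adjusted p from 0.00743 to 0.0257), and 3 without L1L2-FF replicate 3. Leaving out L1L2-FF replicate 1 left 1 gene (*Idh3b*), leaving out replicate 1 or 2 of L1L2-AKO left 3 each, and leaving out its replicate 3 left 1 (*Suclg2*). The adjusted p of *Idh3b* reached 0.05001 without L1L2-AKO replicate 3, that of *Idh3g* 0.0584 without L1L2-FF replicate 1, that of *Sucla2* 0.134 without L1L2-AKO replicate 3, that of *Suclg2* 0.0581 without L1L2-FF replicate 1 and that of *Fh1* 0.111 without L1L2-AKO replicate 3. *Fh1* passed in 1 of the 6 fits that leave out a library, *Sucla2* in 2, *Idh3g* and *Suclg2* in 4 each and *Idh3b* in 5.

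**Figure D2:**
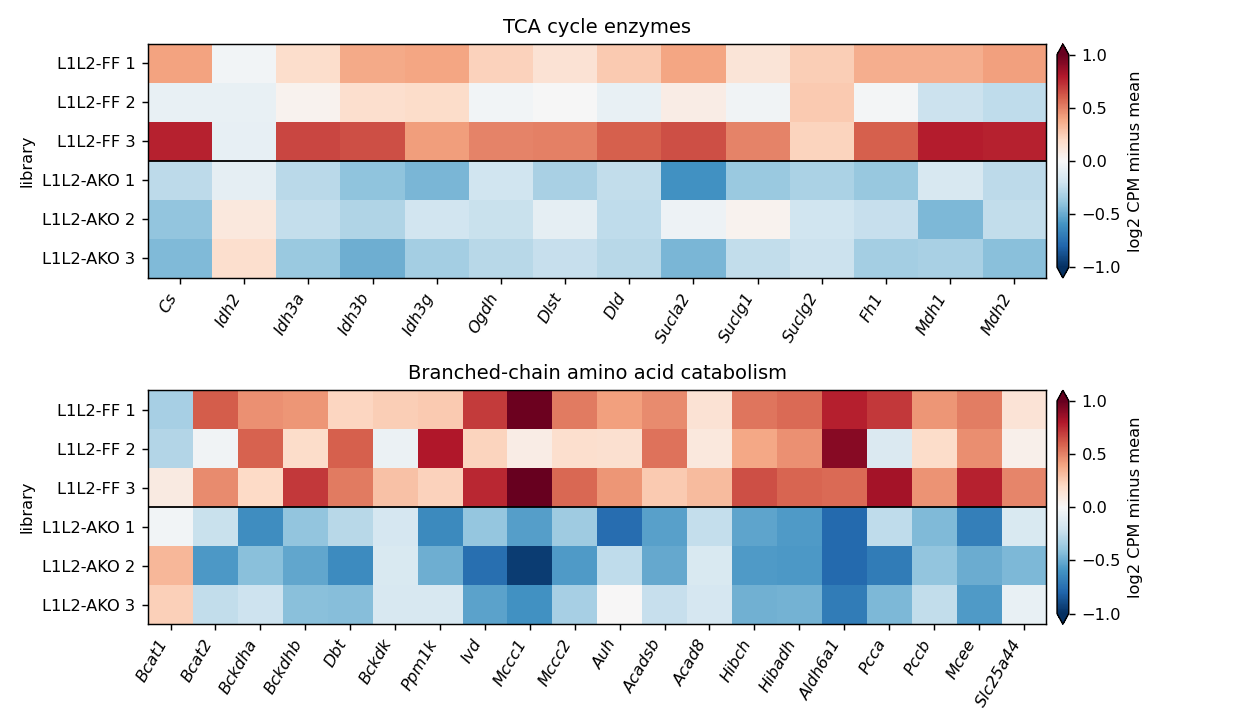
Log2 CPM of each gene in each library minus the gene's mean over the 6 libraries (red higher, blue lower, colours capped at 1 in either direction). L1L2-FF replicate 3 is the reddest row for most genes of both panels and L1L2-FF replicate 2 the palest of the L1L2-FF rows for most, while the 3 L1L2-AKO rows are blue for most genes.

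The RNA of BCAA catabolism genes was lower in L1L2-AKO adipocytes at most steps of the pathway. Of the 20 genes, 16 passed as lower and 0 as higher, beside 7.18% and 9.28% of all tested genes, and 4 did not pass: *Bcat1*, *Bckdk*, *Auh* and *Slc25a44*. Every L1L2-AKO library lay below every L1L2-FF library for 19 of the 20, beside 18.4% of all tested genes, with *Bcat1* as the exception. At an adjusted p under 0.05, DESeq2 called 17 as lower and limma-voom 15, beside 1602 and 1023 over all tested genes. Both called 0 as higher. At an unadjusted p under 0.05, edgeR gave 19 as lower and 0 as higher. Here too, the share of all tested genes at the unadjusted cut was not counted. The median log2 fold change was -0.86, beside -0.02 over all tested genes. The summed level was 3428, 3056 and 3430 CPM in L1L2-FF and 1679.6, 1579 and 1783 CPM in L1L2-AKO libraries, or 50.9% of the L1L2-FF mean. Whether BCAA genes fell further than TCA genes was not tested.

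Transamination is shared by all 3 amino acids. *Bcat2*, the mitochondrial transaminase, measured 174, 112 and 159.6 CPM in the L1L2-FF libraries and 98.3, 76.98 and 96.99 CPM in the L1L2-AKO libraries. It fell without overlap, with log2 fold change -0.71 ± 0.18 (SE, n = 3 libraries per genotype), adjusted p = 0.03495. Its exons overlap those of the opposite-strand *0610005C13Rik*, which holds 10.8% of its 50-base stretches. *Bcat1* measured 4.28, 4.39 and 5.74 CPM in the L1L2-FF libraries and 5.28, 6.79 and 6.35 CPM in the L1L2-AKO libraries. Its levels overlapped and were low in every library, with log2 fold change 0.35 ± 0.20 (SE, n = 3 libraries per genotype), adjusted p = 0.288. The log2 ratio of *Bcat2* to *Bcat1* counts was 5.35, 4.67 and 4.80 in L1L2-FF and 4.22, 3.50 and 3.93 in L1L2-AKO libraries. Every L1L2-AKO library had the lower ratio, and the mean difference of -1.06 gave p = 0.1, the smallest that an exact two-sided permutation test of 3 against 3 can give (adjusted p = 0.3 over 3 ratios). *Slc25a44*, the mitochondrial BCAA carrier, did not pass (-0.46 ± 0.16, adjusted p = 0.0839).

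The branched-chain keto acid dehydrogenase complex commits the carbon skeletons to oxidation, and the genes of its own E1 and E2 subunits all fell. *Bckdhb*, the E1 beta subunit (chr9:83925145-84124240, plus strand), measured 112, 94.03 and 135 CPM in the L1L2-FF libraries and 62.8, 57.9 and 61.97 CPM in the L1L2-AKO libraries. Every L1L2-AKO library was below every L1L2-FF library, with log2 fold change -0.90 ± 0.15 (SE, n = 3 libraries per genotype), adjusted p = 0.00544. *Dbt*, the E2 subunit (chr3:116513070-116549981, plus strand), measured 117, 152 and 144 CPM in the L1L2-FF libraries and 83.05, 65.3 and 75.1 CPM in the L1L2-AKO libraries. Its genotypes were also apart, with log2 fold change -0.89 ± 0.14 (SE, n = 3 libraries per genotype), adjusted p = 0.00559. *Bckdha*, the E1 alpha subunit, went from 178 ± 23.96 to 99.8 ± 14.3 CPM (SD, n = 3), a log2 fold change of -0.83 ± 0.15 (adjusted p = 0.00917). The opposite-strand gene *B3gnt8* holds 49.6% of the 50-base stretches of *Bckdha* and was itself counted at 1.48 and 0.8797 CPM, and the strand setting of the counting is not given in the sources used here.

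The complex is switched off by the kinase *Bckdk* and on by the phosphatase *Ppm1k*. *Bckdk* measured 102, 82.8 and 106 CPM in the L1L2-FF libraries and 76.5, 77.3 and 76.8 CPM in the L1L2-AKO libraries. The L1L2-AKO values were almost equal and below all L1L2-FF values, but the change did not pass, with log2 fold change -0.33 ± 0.12 (SE, n = 3 libraries per genotype), adjusted p = 0.101 (0.0265 when L1L2-FF replicate 2 was left out). *Ppm1k* (chr6:57506502-57535468, minus strand) measured 14.3, 20.7 and 13.99 CPM in the L1L2-FF libraries and 7.69, 8.501 and 10.7 CPM in the L1L2-AKO libraries. It fell, and L1L2-FF replicate 2 stood above the other L1L2-FF libraries, with log2 fold change -0.87 ± 0.21 (SE, n = 3 libraries per genotype), adjusted p = 0.0273. The log2 ratio of *Bckdk* to *Ppm1k* counts was 2.84, 2.00 and 2.92 in L1L2-FF and 3.31, 3.18 and 2.85 in L1L2-AKO libraries. The genotypes overlapped, and the mean difference of 0.53 (0.24 without L1L2-FF replicate 2) gave p = 0.2 in the exact two-sided permutation test (adjusted p = 0.3 over 3 ratios).

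In the leucine branch, 3 of 4 genes fell. *Ivd*, the isovaleryl-CoA dehydrogenase (chr2:118861954-118882909, plus strand), measured 271, 195 and 282 CPM in the L1L2-FF libraries and 128, 99.3 and 115 CPM in the L1L2-AKO libraries. The highest L1L2-AKO library stayed well below the lowest L1L2-FF library, with log2 fold change -1.13 ± 0.17 (SE, n = 3 libraries per genotype), adjusted p = 0.00437. *Mccc1* and *Mccc2* are the biotin-bearing alpha and the beta subunit of methylcrotonyl-CoA carboxylase. *Mccc1* (chr3:35959312-36000678, minus strand) measured 196, 105 and 205 CPM in the L1L2-FF libraries and 67.8, 51.5 and 65.3 CPM in the L1L2-AKO libraries. L1L2-FF replicate 2 was the lowest L1L2-FF library by a wide margin and still above all L1L2-AKO libraries, with log2 fold change -1.46 ± 0.25 (SE, n = 3 libraries per genotype), adjusted p = 0.00729. *Mccc2* (chr13:99948530-100015639, minus strand) measured 142, 111 and 147 CPM in the L1L2-FF libraries and 77.4, 66.8 and 78.7 CPM in the L1L2-AKO libraries. It fell without overlap, with log2 fold change -0.85 ± 0.14 (SE, n = 3 libraries per genotype), adjusted p = 0.00617. *Auh*, the methylglutaconyl-CoA hydratase, did not pass (-0.65 ± 0.19, adjusted p = 0.0553), although it passed when L1L2-FF replicate 2 (adjusted p = 0.0468) or L1L2-AKO replicate 3 (adjusted p = 0.0419) was left out. Counting other normalizations, tests and filters too, *Auh* passed as lower in 7 of 14 alternative fits.

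All 5 genes of the valine and isoleucine branch fell. *Aldh6a1* (chr12:84430717-84451004, minus strand), which converts methylmalonate semialdehyde to propionyl-CoA and is the most abundant BCAA gene, measured 625, 685 and 542 CPM in the L1L2-FF libraries and 213, 213 and 225 CPM in the L1L2-AKO libraries. The L1L2-AKO libraries lay within a narrow band at 35.1% of the L1L2-FF level, with log2 fold change -1.51 ± 0.14 (SE, n = 3 libraries per genotype), adjusted p = 0.000623. Its opposite-strand neighbour *Bbof1* holds 16.1% of its 50-base stretches and was counted at 3.67 and 1.96 CPM. *Hibch* and *Hibadh* act in sequence on the hydroxyisobutyryl intermediates of valine. *Hibch* (chr1:52844929-52920986, plus strand) measured 182, 165 and 197 CPM in the L1L2-FF libraries and 87.5, 85.2 and 90.1 CPM in the L1L2-AKO libraries. *Hibadh* (chr6:52546228-52640389, minus strand) measured 318, 295 and 322 CPM in the L1L2-FF libraries and 145, 144 and 155 CPM in the L1L2-AKO libraries. Both had tight replicates and fell to 48.3% and 47.5% of the L1L2-FF level, *Hibch* with log2 fold change -1.05 ± 0.11 (SE, n = 3 libraries per genotype), adjusted p = 0.00112. *Hibadh* had log2 fold change -1.07 ± 0.11 (SE, n = 3 libraries per genotype), adjusted p = 0.000967. *Acadsb*, the short/branched-chain acyl-CoA dehydrogenase of the isoleucine branch (chr7:131410601-131448944, plus strand), measured 216, 227 and 186 CPM in the L1L2-FF libraries and 107, 109 and 132 CPM in the L1L2-AKO libraries. It fell without overlap, with log2 fold change -0.85 ± 0.14 (SE, n = 3 libraries per genotype), adjusted p = 0.00534. *Acad8*, the isobutyryl-CoA dehydrogenase of valine, had the smallest change among the BCAA genes that passed, from 54.3 ± 4.27 to 41.9 ± 1.35 CPM (SD, n = 3) with -0.37 ± 0.11 (adjusted p = 0.0467). *Acad8* missed the threshold with DESeq2 size factors (adjusted p = 0.0512), with limma-voom (0.05002) and with no filter on low counts (0.0875).

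At the shared end, propionyl-CoA carboxylase and methylmalonyl-CoA epimerase lead into the TCA cycle. *Mcee*, the epimerase (chr7:64392607-64412125, plus strand), measured 37.6, 36.3 and 44.9 CPM in the L1L2-FF libraries and 16.4, 18.7 and 17.8 CPM in the L1L2-AKO libraries. Every L1L2-AKO library was under every L1L2-FF library by a wide margin, with log2 fold change -1.17 ± 0.13 (SE, n = 3 libraries per genotype), adjusted p = 0.00119. *Pcca*, the biotin-bearing alpha subunit of the carboxylase (chr14:122534324-122891100, plus strand), measured 213, 118 and 233 CPM in the L1L2-FF libraries and 109, 80.6 and 95.9 CPM in the L1L2-AKO libraries. L1L2-FF replicate 2 lay close to the highest L1L2-AKO library, and the change had log2 fold change -0.98 ± 0.25 (SE, n = 3 libraries per genotype), adjusted p = 0.0323. *Pccb*, the beta subunit, went from 278 ± 28.2 to 168 ± 11.8 CPM (SD, n = 3), with -0.72 ± 0.13 (adjusted p = 0.00796).

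Most BCAA calls did not rest on a single library. Of the 16 genes, 12 passed in each of the 6 fits that leave out a library: *Bckdha*, *Bckdhb*, *Dbt*, *Ivd*, *Mccc1*, *Mccc2*, *Acadsb*, *Hibch*, *Hibadh*, *Aldh6a1*, *Pccb* and *Mcee*. The adjusted p of *Bcat2* reached 0.133 without L1L2-AKO replicate 2, that of *Pcca* 0.125 without L1L2-AKO replicate 2, that of *Ppm1k* 0.104 without L1L2-AKO replicate 2 and that of *Acad8* 0.14 without L1L2-AKO replicate 2. *Bcat2* and *Acad8* passed in 1 of the 6 fits, *Pcca* in 2 and *Ppm1k* in 3. As among the TCA genes, L1L2-FF replicate 3 was often the highest L1L2-FF library, for 14 of the 20 genes, and L1L2-FF replicate 2 the lowest, for 14. L1L2-FF replicate 2 was the highest for *Bckdha*, *Dbt*, *Ppm1k*, *Acadsb* and *Aldh6a1*.

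**Figure D3:**
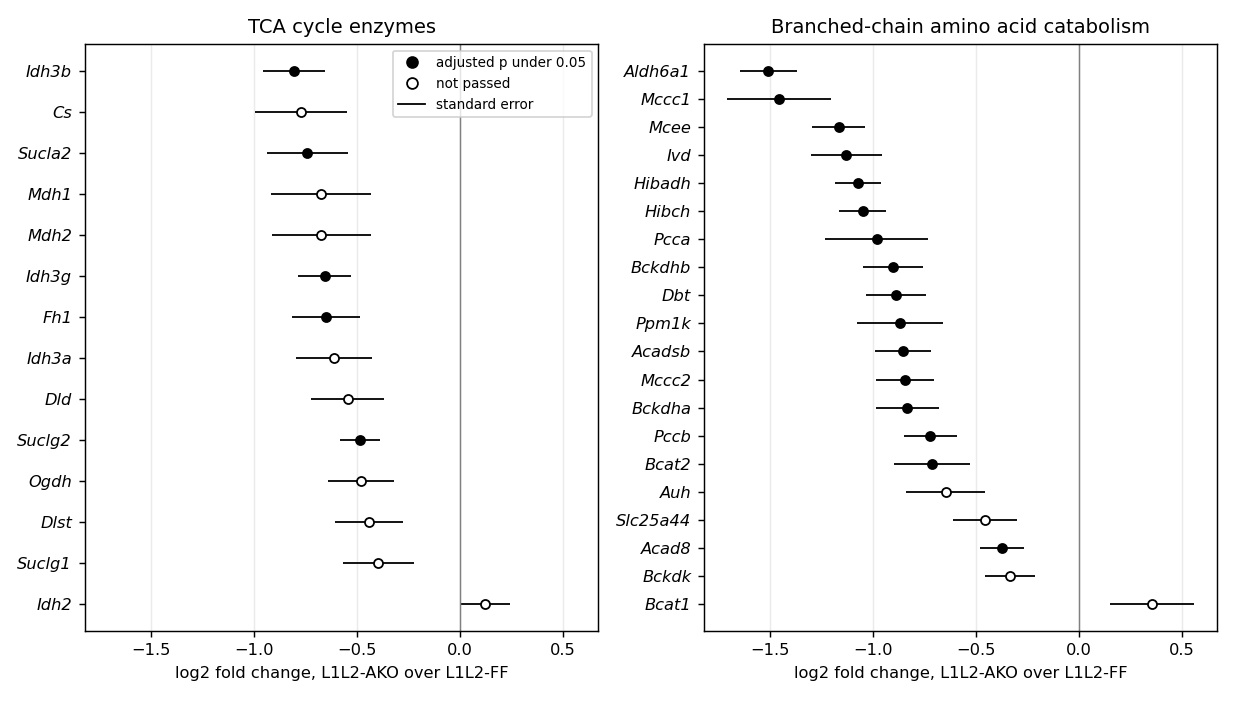
Log2 fold change of L1L2-AKO over L1L2-FF for each gene with its standard error, ordered by size, with filled points for an adjusted p under 0.05. The filled points number 5 of 14 in the TCA panel and 16 of 20 in the BCAA panel, all left of 0, and *Idh2* and *Bcat1* lie right of 0 without passing.

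Genes that complete these pathways were counted from further lists. Of 32 other TCA genes, which include pyruvate entry and anaplerosis, 10 were lower, 4 were higher and 18 did not pass (median -0.62 on the log2 scale). These counts stand beside 7.18% of all tested genes called lower and 9.28% called higher. *Aco1*, the cytosolic aconitase that doubles as iron regulatory protein, fell (-1.23 ± 0.14). Of succinate dehydrogenase, the catalytic subunits *Sdha* (-0.77 ± 0.17) and *Sdhb* (-0.79 ± 0.18) fell, while the membrane anchors *Sdhc* (-0.48 ± 0.16) and *Sdhd* (-0.59 ± 0.17) did not pass. At pyruvate entry, the mitochondrial pyruvate carriers *Mpc1* (-1.20 ± 0.27) and *Mpc2* (-0.81 ± 0.23), the pyruvate dehydrogenase subunit *Pdhb* (-0.79 ± 0.21) and the inhibitory kinases *Pdk1* (-0.50 ± 0.13) and *Pdk2* (-1.09 ± 0.14) fell. The kinase *Pdk3* (0.79 ± 0.20) and the activating phosphatase *Pdp1* (0.98 ± 0.17) rose. Alanine transaminase *Gpt2* had the largest fall of the list (-2.61 ± 0.25), and *Me3* (2.07 ± 0.50) and *Got1* (0.87 ± 0.19) rose from low levels.

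Of 23 other BCAA genes, 10 were lower and 2 were higher, beside 7.18% and 9.28% of all tested genes. The remaining 11 did not pass, and the list median was -0.46. The shared hydratase *Echs1* (-0.98 ± 0.16), the dehydrogenase *Hsd17b10* (-0.46 ± 0.11), the thiolase *Acat1* (-0.55 ± 0.15) and the methylmalonyl-CoA mutase *Mmut* (-0.67 ± 0.13), which acts after *Mcee*, all fell. Among the others that fell were *Mmaa*, *Hadhb*, *Ehhadh*, *Acads* and *Aldh2*. The rises were both in amino acid transporters of the plasma membrane: *Slc7a5* went from 8.34 ± 2.18 to 32.02 ± 4.36 CPM (1.94 ± 0.21) and *Slc7a8* from 9.02 ± 0.855 to 120.2 ± 27.7 CPM (3.74 ± 0.19).

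Other mitochondrial genes were counted from a chosen list that holds no subunits of the respiratory chain. Whether the TCA or BCAA genes fell further than these genes was not tested. Of 20 genes for import, chaperones, mitochondrial DNA and membrane dynamics, 3 were lower (*Timm44* -0.55 ± 0.11, *Opa1* -0.45 ± 0.13 and *Mfn2* -0.74 ± 0.15). In this list 0 were higher and 17 did not pass, with a median of -0.22. Of all tested genes, 7.18% were called lower and 9.28% higher. At an unadjusted p under 0.05, edgeR gave 5 of the 20 as lower and 0 as higher. The share of all tested genes at that cut was not counted. For 6 of the 20, every L1L2-AKO library lay below every L1L2-FF library, beside 18.4% of all tested genes. Of 10 regulators of mitochondrial and oxidative genes, the nuclear receptors *Ppara* (-0.84 ± 0.18) and *Pparg* (-0.59 ± 0.12) fell, the coactivator *Pprc1* (0.73 ± 0.13) rose and 7 did not pass.

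**Figure D4:**
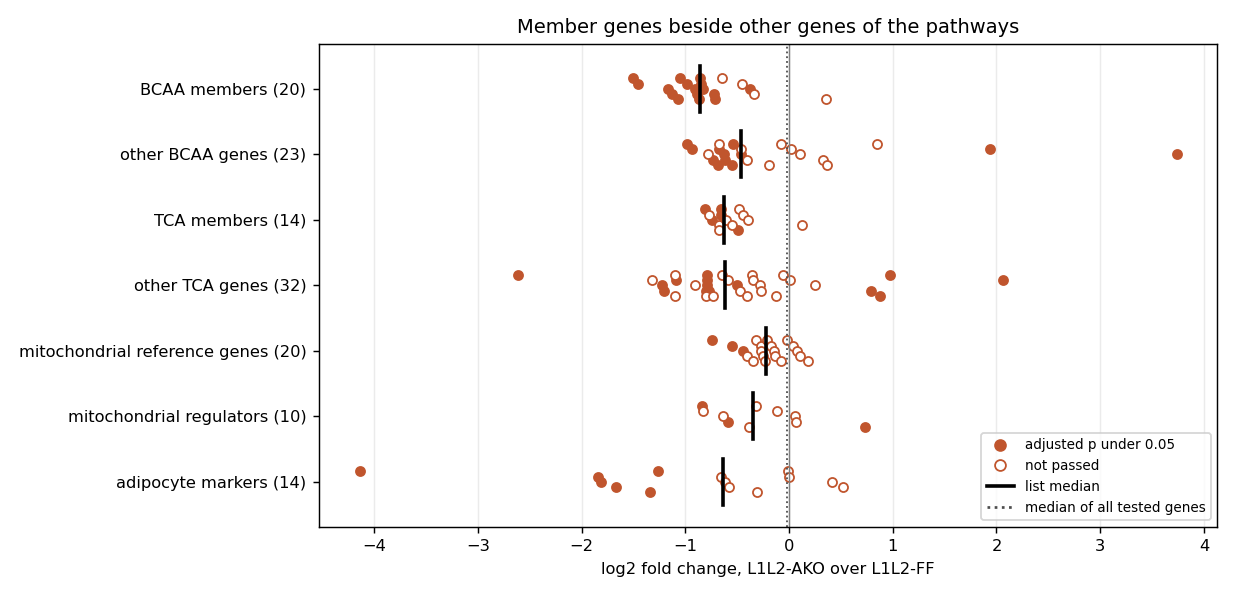
Log2 fold changes of the 34 genes beside other genes of the pathways, mitochondrial reference genes, regulators and adipocyte markers (tested genes in brackets), with filled points for an adjusted p under 0.05, a bar at the list median and a dotted line at the median of all tested genes (-0.02). The BCAA median lies at -0.86 and the TCA median at -0.63, with the adipocyte markers at -0.64 and the mitochondrial reference genes at -0.22.

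The libraries also differed in markers of cell types. The counts of each list below stand beside 7.18% of all tested genes called lower and 9.28% called higher. Of 14 adipocyte markers, 6 were lower, 0 were higher and 8 did not pass (list median -0.64). The 6 were *Cfd* (-4.14 ± 0.33), *Retn* (-1.84 ± 0.28), *Slc2a4* (-1.81 ± 0.21), *Pck1* (-1.67 ± 0.30), *Car3* (-1.34 ± 0.30) and *Adipoq* (-1.26 ± 0.21). At an unadjusted p under 0.05, edgeR gave 9 of the 14 as lower and 0 as higher. The abundant *Lpl* (0.52 ± 0.29) and *Fabp4* (-0.30 ± 0.21) did not pass, though for *Lpl* every L1L2-AKO library lay above every L1L2-FF library. The summed level of the 14 markers was 46003 to 60861 CPM in L1L2-FF and 34264 to 46302 CPM in L1L2-AKO libraries. Of 12 macrophage markers, 11 were higher, including *Mrc1* (1.84 ± 0.23), *Lyz2* (1.08 ± 0.23) and *Csf1r* (1.24 ± 0.26), with sums of 272 to 534 and 981 to 1106 CPM. Of 6 mural cell markers, 3 were lower and 1 higher (848 to 1147 and 519 to 762 CPM), and of 6 Schwann cell markers 3 were lower and 1 higher (792 to 1727 and 753 to 1399 CPM). Endothelial markers had 1 lower of 8 (1708 to 2279 and 1008 to 2197 CPM), and progenitor markers had 2 lower and 1 higher of 8 (349.8 to 441 and 291 to 373 CPM). Of 7 tested beige and brown fat markers 2 were lower (363 to 731 and 272 to 414 CPM), with *Zic1* at 0 counts in every library, and of 6 tested skeletal muscle markers 0 passed by edgeR (1 higher and 2 lower at an unadjusted p under 0.05), at 11.6 to 19.5 and 3.93 to 10.02 CPM. Within L1L2-FF, replicate 2 had the lowest adipocyte sum (46003 CPM), the highest macrophage sum (534 CPM) and the lowest TCA and BCAA sums (5051 and 3056 CPM). It also had the highest Schwann cell, progenitor and skeletal muscle sums of that genotype (1727, 441 and 19.5 CPM). The adipocyte markers did not move together there. *Adipoq*, *Cfd*, *Plin4* and *Pck1* were highest in L1L2-FF replicate 2 (2396, 4996, 3135 and 2198 CPM), and *Pnpla2* lay between the other L1L2-FF libraries. The remaining adipocyte markers, including the abundant *Car3*, *Lpl* and *Fabp4*, were lowest in it. The part of these cell types in the TCA and BCAA differences was not tested.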

How the data were processed

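RNA-seq reads were aligned by the authors to mm10 with HISAT2 2.1.0 and processed with StringTie 1.3.5 per the labels. The deposited values are counts per gene symbol, whole numbers with no normalization, and the program, annotation and strand setting behind them are not given in the sources used here. Library totals were 30548473 to 32107917 over 37384 genes, with 0 rows that name no gene. Genes were filtered with filterByExpr (minimum count 10, minimum total 15), which kept 15674, and tested unpaired with edgeR 4.0.16 (glmQLFit and glmQLFTest, two-sided). The SE is the absolute log2 fold change over the square root of F. The common biological coefficient of variation was 0.206. DESeq2 1.42.0 and limma 3.58.1 ran in R 4.3.3 as alternatives, beside other normalizations, filters and each library left out. Gene positions, exon lengths and shared 50-base stretches came from GENCODE M21, and promoters from RefSeq. The tests were checked on simulated counts.

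Replicates of a genotype differed by more than sampling noise. The member genes, the further lists, the tests and the rule for named genes were chosen with earlier results of these data known. Library values are printed for genes past the threshold without overlap (at most 12 per group, by size of change), for the genes of each ratio and for the most abundant gene of each group. Of the genes of the further lists that the rule names, 2 are not reported here. *Mut* was matched to *Mmut* by its RefSeq synonym.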

Additional observations from a re-analysis of the deposited data

How the results depend on the processing

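No member changed direction under any of the 14 alternatives to normalization, test, filter or library set. The count of lower TCA genes, 5, was 8 with upper-quartile normalization and 11 with DESeq2's Wald test, and 1 to 11 when a library was left out. It was 5 with DESeq2 size factors, limma-voom or at least 10 counts in every library, 6 with no filter, 7 with library size alone and 4 with an added threshold of 1.5-fold. The cause of these shifts was not tested. The count of lower BCAA genes, 16, was 12 to 18 when a library was left out and 15 to 17 otherwise, and both counts of higher genes were 0 throughout. Over all tested genes, the 1125 lower calls became 467 to 1293 and the 1455 higher calls 777 to 1552 when a library was left out. The 3 ratios kept their sign in every alternative.

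Whether replicate numbers pair the libraries was not settled. Deviations of same-numbered libraries over the 5000 genes used correlated at r = 0.13, 0.41 and -0.07. L1L2-FF replicates 1 and 2 correlated best with their own number, and L1L2-FF replicate 3 best with L1L2-AKO replicate 1 (r = 0.34). Deviations from a mean of 3 libraries depend on each other, so these values cannot exclude a pairing. With the replicate block, 3 TCA genes (*Sucla2* and *Fh1* no longer passed) and 17 BCAA genes (*Auh* and *Slc25a44* gained, *Acad8* lost) were lower, and the mean within-number differences of the ratios were 0.53, 0.25 and -1.06. Depth was lowest for *Bcat1*, with 134 to 214 counts per library. With 3 libraries per genotype the permutation tests cannot go below p = 0.1.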
